A study of Mus musculus with 6 samples.

Results

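The STAT factors and their feedback inhibitors were examined as 9 genes in alloreactive CD4+ T cells: Stat3, Stat4, Stat5a, Stat5b, Stat6, Socs1, Socs2, Socs3 and Cish. Every array probe whose RefSeq accession belongs to 1 of these symbols was taken, which gave 12 probes for the 9 genes, out of 22561 gene symbols named on the array. The cells were TEa cells, CD4+ T cells with a transgenic receptor (Vα2+Vβ6+), on a C57BL/6 background. CD45.2+ TEa cells were transferred into CD45.1+ B6.SJL mice on day -1, the mice received Balb/c hearts on day 0, and the TEa cells were sorted from the spleens on day 6. In the Irf4 KO blockade group, Irf4-/- cells were transferred and the mice were given 200 µg anti-PD-L1 and 200 µg anti-CTLA-4 (9D9) on days 0, 3 and 5. In the Irf4 KO IgG group, mice with Irf4-/- cells were given 400 µg rat IgG on the same days. The WT IgG group had wild-type TEa cells in mice labelled as treated with rat IgG, with no dose stated. Each of the 3 groups had 2 arrays from independent experiments, named array 1 and array 2 here, array 2 being the labelled repeat. The sort, by CD45 allele, was what separated the transferred cells from the hosts' own.

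Cytokines bound at the T cell surface activate Janus kinases, which phosphorylate STAT proteins. These dimerise and switch on target genes in the nucleus, among them the SOCS family and Cish, whose products bind receptors or kinases and damp the same signal. In CD4+ T cells STAT4 acts downstream of IL-12, STAT6 of IL-4, STAT5A and STAT5B of IL-2 and IL-7, and STAT3 of IL-6 and IL-21.

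Gene expression was read as the intensity of single-colour Agilent arrays. Probes well above background made up 39.7% and 34.5% of those on the blockade arrays. The shares were 66.0% and 75.2% with Irf4 KO IgG, against 37.3% and 40.5% with WT. The Irf4 KO IgG arrays thus stood apart through their weak probes. For that reason levels were compared among the 10225 probes whose log2 intensity averaged 8 or more, quantile-normalised among themselves, which is called the bright-probe scale, and dimmer probes are given as raw intensity. A change on the bright-probe scale is relative to other bright probes. The all-probe scale, which subtracts each array's 75th percentile, is given where it changes a direction: on it the median bright probe moved by -1.04 (log2) between Irf4 KO IgG and WT, by 1.09 between blockade and Irf4 KO IgG, and by 0.06 between blockade and WT. Of 11 T cell marker genes with a probe, 11 were well above background on every array. The brighter Irf4 probe read 2071 and 1703 for blockade, 2128 and 3073 for Irf4 KO IgG, against 673 and 1068 for WT, so the gene named in the genotype was not lower on the arrays labelled KO. Where the probe lies relative to the deleted part is not known here, and groups are called by their labels.

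Of the 12 probes, 8 (7 genes) were bright and entered the test, and 4 were dim: both Socs2 probes, the Cish probe and 1 of the Stat3 probes. The dimmest probe inside the minimum was that of Stat6, with a mean log2 intensity of 9.75, and the brightest outside it was that of Cish, with 7.29. The main findings were a lower Socs3 signal under blockade, a higher signal of 1 of 2 Stat5a probes in Irf4 KO IgG cells, and Socs2 signal that was above background for Irf4 KO IgG and not for WT. The first did not pass the test after adjustment, the second passed narrowly and was not seen with the other probe, and the third lay in the range where weak probes in general were brighter.

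**Figure D1:**
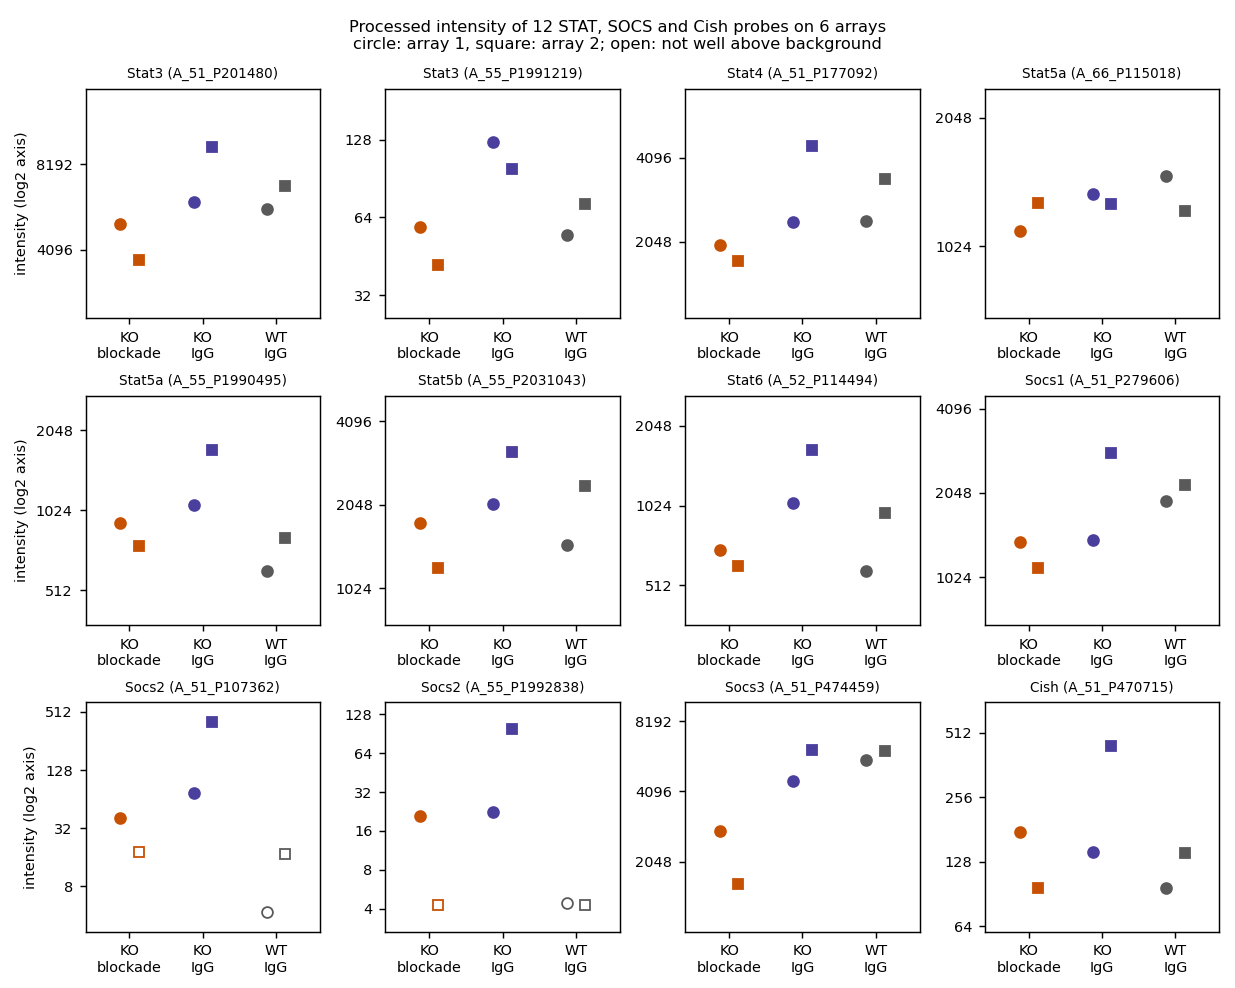
Processed intensity (log2 axis) of each of the 12 probes, with Irf4 KO blockade, Irf4 KO IgG and WT IgG from left to right, circles for array 1 and squares for array 2. Open symbols are not well above background, as Socs2 is on both WT arrays. The 2 blockade arrays of Socs3, at 2768 and 1645, sit below the other 4.

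STAT3 (gene identifier 20848, chromosome 11) transmits IL-6 and IL-21 signals and supports follicular helper and Th17 differentiation. Its bright probe read 5047 and 3767 for blockade, 6029 and 9418 for Irf4 KO IgG, against 5683 and 6866 for WT. On the bright-probe scale Stat3 was highest for Irf4 KO IgG and lowest for blockade, with no overlap between any of the groups. Of bright probes, 23.2% were higher without overlap between Irf4 KO IgG and WT. Under blockade 28.3% were lower than in Irf4 KO IgG cells and 27.3% lower than in WT cells. The share with all of these was not computed. The Stat3 level averaged 12.28 ± 0.08 in blockade cells, 12.81 ± 0.01 in Irf4 KO IgG cells and 12.50 ± 0.07 in WT cells (log2, SD, n = 2 each). The log2 fold change was -0.53 between blockade and Irf4 KO IgG (SE 0.11, limma adjusted p = 0.0766) and 0.31 between Irf4 KO IgG and WT (SE 0.11, limma adjusted p = 0.187), and neither passed; on the all-probe scale they turned to 0.76 and -0.93. The dim Stat3 probe, made for another accession of the gene, read 58.5 and 41.7 under blockade, 126 and 98.6 in Irf4 KO IgG cells, and 54.6 and 72.1 in WT cells. It was well above background on all 6 arrays and its raw intensity was highest for Irf4 KO IgG. Between Irf4 KO IgG and WT, 65.5% of dim probes rose by more than this probe did. On the all-probe scale it was -0.37 between Irf4 KO IgG and WT and 0.38 between blockade and Irf4 KO IgG.

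STAT4 (20849, chromosome 1) drives Th1 differentiation. Its probe read 1998 and 1748 for blockade, 2408 and 4519 for Irf4 KO IgG, against 2439 and 3448 for WT. On the bright-probe scale the blockade arrays lay below both other groups, which overlapped each other. The log2 fold change was -0.42 between blockade and Irf4 KO IgG (SE 0.14, limma adjusted p = 0.129), and -0.32 between blockade and WT (SE 0.14, limma adjusted p = 0.296). Between Irf4 KO IgG and WT it was 0.10 (95% interval from -0.24 to 0.45). On the all-probe scale the change between blockade and Irf4 KO IgG turned to 0.73, and that between Irf4 KO IgG and WT to -1.02.

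STAT6 (20852, chromosome 10) carries the IL-4 signal towards Th2 differentiation. Its probe read 698 and 604 for blockade, 1044 and 1666 for Irf4 KO IgG, against 580 and 963 for WT. The Irf4 KO IgG arrays were above both other groups, and blockade and WT overlapped. The log2 fold change was 0.57 between Irf4 KO IgG and WT (SE 0.14, limma adjusted p = 0.101) and -0.46 between blockade and Irf4 KO IgG (SE 0.14, limma adjusted p = 0.118). Both turned on the all-probe scale, to -0.38 and 0.53.

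STAT5A (20850) and STAT5B (20851), both encoded on chromosome 11, are closely related factors that relay IL-2 and IL-7 signals for survival and proliferation, and related sequences mean that their probes may share signal. Of the 2 Stat5a probes, A_55_P1990495 read 915 and 752 for blockade, 1073 and 1727 for Irf4 KO IgG, against 606 and 805 for WT. On the bright-probe scale it averaged 9.99 ± 0.05 in blockade cells, 10.16 ± 0.06 in Irf4 KO IgG cells and 9.44 ± 0.03 in WT cells (log2, SD, n = 2 each). It rose in Irf4 KO IgG cells against WT by 0.72 (log2 fold change, SE 0.11, limma adjusted p = 0.0468), which passed. Between blockade and WT it was 0.55 (SE 0.11, limma adjusted p = 0.0882), which did not pass. In the first comparison 1 of the 8 bright member probes was called, beside 2.41% of all bright probes. The call ended without any 1 of the 6 arrays, with adjusted p between 0.0858 and 0.203 and a log2 fold change between 0.69 and 0.77. On the all-probe scale the value was -0.24 (limma adjusted p = 0.386).

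The other Stat5a probe, A_66_P115018, read 1114 and 1296 for blockade, 1357 and 1289 for Irf4 KO IgG, against 1494 and 1242 for WT. Its raw intensity changed little from array to array. The highest value was 1.34 times the lowest, a ratio smaller than that of all but 1.50% of bright probes, for which the median ratio was 2.13. After normalisation its arrays therefore spread widely within each group, with SDs of 0.39 in blockade cells, 0.56 in Irf4 KO IgG cells and 0.47 in WT cells (log2). Irf4 KO IgG against WT gave -0.24 (log2 fold change), with a 95% interval from -1.14 to 0.65. The value of the first probe, 0.72, lies just above it, and the difference between the probes was not tested. The difference between the 2 probes within an array was -0.28 and -0.78 under blockade, -0.34 and 0.42 in Irf4 KO IgG cells, and -1.30 and -0.63 in WT cells (log2). The Stat5b probe read 1758 and 1207 for blockade, 2061 and 3170 for Irf4 KO IgG, against 1466 and 2398 for WT. Its log2 fold change was -0.39 between blockade and Irf4 KO IgG (SE 0.15, limma adjusted p = 0.160) and 0.33 between Irf4 KO IgG and WT (SE 0.15, limma adjusted p = 0.263). These turned to 0.74 and -0.75 on the all-probe scale.

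SOCS3 (12702, chromosome 11) binds the gp130 chain of the IL-6 receptor and restrains STAT3. Its probe read 2768 and 1645 for blockade, 4549 and 6150 for Irf4 KO IgG, against 5593 and 6103 for WT. Both blockade arrays were below all other arrays, while Irf4 KO IgG and WT overlapped. The level averaged 11.30 ± 0.29 in blockade cells, 12.26 ± 0.17 in Irf4 KO IgG cells and 12.41 ± 0.18 in WT cells (log2, SD, n = 2 each). The log2 fold change was -1.11 between blockade and WT (SE 0.19, 95% interval -1.59 to -0.64, limma adjusted p = 0.0707), a level 0.462 times that of WT. Only 2.86% of bright probes changed by more in that comparison. Against Irf4 KO IgG cells the blockade value was -0.97 (SE 0.19, 95% interval -1.44 to -0.49, limma adjusted p = 0.0712), where 5.51% changed by more. Neither passed after adjustment over all bright probes. The blockade value against WT was negative in 18 of 18 other settings, between -0.90 and -1.31, with adjusted p from 0.0515 to 0.377. Against Irf4 KO IgG it was negative in 17 of 18 and 0.24 on the all-probe scale (limma adjusted p = 0.447).

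SOCS1 (12703, chromosome 16) inhibits JAK kinases after interferon-gamma and gamma-chain cytokine signals. Its probe read 1366 and 1109 for blockade, 1394 and 2846 for Irf4 KO IgG, against 1922 and 2192 for WT. On the bright-probe scale the blockade arrays were below both other groups, which overlapped. The log2 fold change was -0.42 between blockade and WT (SE 0.17, limma adjusted p = 0.258), -0.24 between blockade and Irf4 KO IgG (SE 0.17, limma adjusted p = 0.379) and -0.18 between Irf4 KO IgG and WT (SE 0.17, limma adjusted p = 0.547). On the all-probe scale the second of these turned to 0.86.

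**Figure D2:**
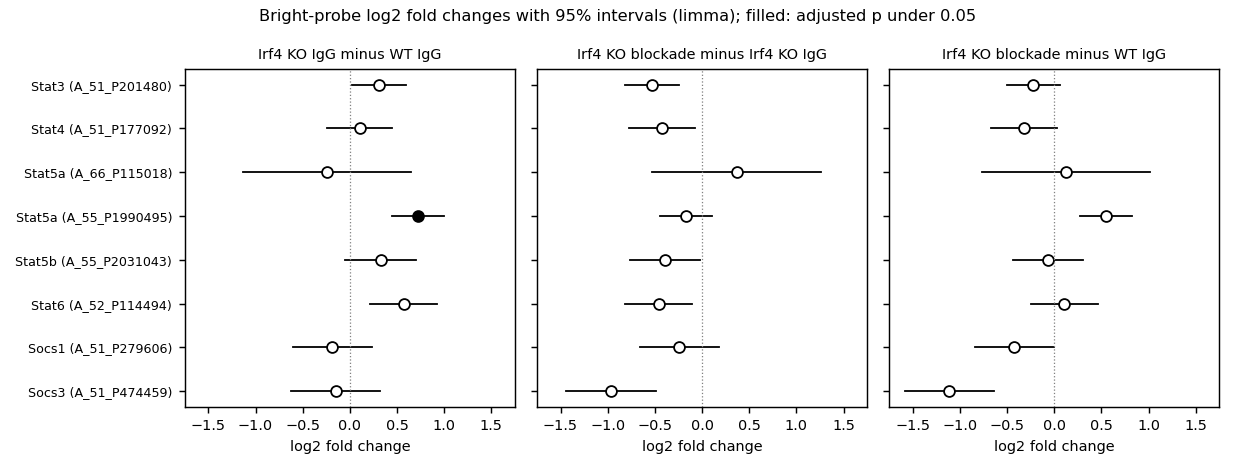
Log2 fold change of the 8 bright probes in the 3 comparisons on the bright-probe scale, with 95% intervals from limma, and a filled point where the adjusted p is under 0.05. The filled point is Stat5a A_55_P1990495 between Irf4 KO IgG and WT, at 0.72 (-0.24 on the all-probe scale), and Socs3 lies furthest from 0 in the comparisons of blockade, at -0.97 (0.24 on the all-probe scale) and -1.11.

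Because directions depended on the scale, Socs1 and Socs3 were also set against the STAT genes of the same array, a measure that no scaling of an array by a single factor can move. It can still move where an array shifts brighter and dimmer probes by different amounts. This measure was chosen after the values were seen and was not tested. The log2 intensity of Socs3 minus the mean of the 5 STAT genes (6 bright probes) was 0.74 and 0.27 for blockade, 1.14 and 0.94 for Irf4 KO IgG, against 1.79 and 1.45 for WT. The 3 groups did not overlap, with Socs3 lowest relative to the STAT genes under blockade and highest in WT cells. The share of bright probes that separate this way was not computed. The measure also moves with the STAT genes. Between Irf4 KO IgG and WT, Socs3 itself was -0.15 on the bright-probe scale, with overlap. On that scale Stat3 was 0.31, Stat4 0.10, Stat5b 0.33, Stat6 0.57, and the Stat5a probes 0.72 and -0.24. For Socs1 the difference was -0.28 and -0.30 under blockade, -0.57 and -0.17 in Irf4 KO IgG cells, and 0.25 and -0.02 in WT cells. All 4 arrays labelled KO were below both WT arrays, and the blockade and Irf4 KO IgG arrays overlapped.

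**Figure D3:**
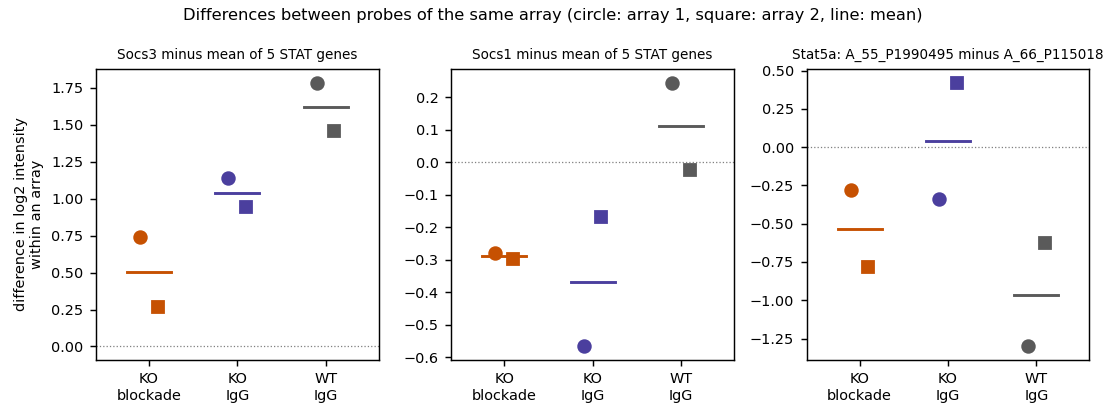
Difference in log2 intensity within each array (circles array 1, squares array 2, lines the group means), for Socs3 and Socs1 against the mean of the 5 STAT genes and for the 2 Stat5a probes, with Irf4 KO blockade, Irf4 KO IgG and WT IgG from left to right. Socs3 means were 0.50 under blockade, 1.04 in Irf4 KO IgG cells and 1.62 in WT cells.

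SOCS2 (216233, chromosome 10), a SOCS protein best known for restraining growth hormone receptor and STAT5 signals, was near background in most samples. Its brighter probe, A_51_P107362, read 40.7 and 18.1 for blockade, 74.6 and 400.0 for Irf4 KO IgG, against 4.35 and 17.2 for WT. It was well above background on 1 of 2 blockade arrays, on each Irf4 KO IgG array and on neither WT array. The other probe, A_55_P1992838, read 20.8 and 4.30 under blockade, 22.3 and 98.7 in Irf4 KO IgG cells, and 4.43 and 4.25 in WT cells, with the same pattern of detection. Between Irf4 KO IgG and WT the brighter probe was at least 9.03-fold higher with arrays scaled by the median bright probe, and at least 4.63-fold higher with the 75th percentile (limma adjusted p = 0.0235 on the all-probe scale). For the other probe the bound was 3.18-fold with the median bright probe and 1.63-fold with the 75th percentile (limma adjusted p = 0.0537). For these bounds a WT array counts at the lowest signal well above background there, or at the probe's own signal if higher. Of the 31511 probes that were not well above background on either WT array, 38.3% were well above it on both Irf4 KO IgG arrays, against 0.517% on both blockade arrays, and 29.4% of probes on the all-probe scale were called higher in Irf4 KO IgG cells. Among dim probes, 7.58% rose by more than the brighter Socs2 probe did, and 16.1% rose by more than the other.

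CIS (Cish, 12700, chromosome 9), the SOCS family member induced by STAT5 that damps T cell receptor and cytokine signals, read 175 and 96.4 for blockade, 142 and 445 for Irf4 KO IgG, against 96.8 and 140 for WT. It was well above background on all 6 arrays, and its value on Irf4 KO IgG array 2 was above all others while the remaining 5 arrays overlapped across groups. It entered the test with a minimum mean log2 of 7, where its log2 fold change was 0.47 between Irf4 KO IgG and WT (SE 0.39, limma adjusted p = 0.500) and 0.48 between blockade and WT (SE 0.39, limma adjusted p = 0.581). On the all-probe scale the first of these turned to -0.10.

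Socs2 and Cish were highest on Irf4 KO IgG array 2, which also carried the most signal of B cell and erythroid markers. B cell markers summed to intensities of 393 and 407 for blockade, 1216 and 6300 for Irf4 KO IgG, against 230 and 249 for WT. Of 11 such genes, 10 and 11 were well above background in Irf4 KO IgG cells. Under blockade 2 and 3 were, and in WT cells 2 and 3. Of all probes, 66.0% and 75.2% were well above background in Irf4 KO IgG cells. The shares were 39.7% and 34.5% under blockade and 37.3% and 40.5% in WT cells, and they also apply to the counts that follow. Cd79a was not well above background on any blockade or WT array. Markers of monocytes, macrophages and neutrophils summed to 11032 and 11904 under blockade, 22985 and 76621 in Irf4 KO IgG cells, and 10521 and 17293 in WT cells, with 8 and 8, 12 and 11, and 8 and 7 of 12 genes well above background. Lyz2 and Cd14 were not on any blockade or WT array. Of the sums in Irf4 KO IgG cells, Csf3r gave 14721 on array 1 and S100a9 gave 44805 on array 2. Erythroid and platelet markers summed to 11394 and 6996 under blockade, 1754 and 55670 in Irf4 KO IgG cells, and 209 and 786 in WT cells, with 8 and 5, 8 and 10, and 2 and 2 of 10 genes well above background. Dendritic cell markers had 1 of 8 genes, Siglech, well above background on each blockade and WT array, and 5 and 6 for Irf4 KO IgG. Their summed intensities were 7391 and 4795 under blockade, 24042 and 13240 in Irf4 KO IgG cells, and 7583 and 13952 in WT cells. Siglech alone gave 7367 and 4738, 23793 and 12858, and 7552 and 13923 of these. The part of cells of these marker types in the Socs2 and Cish signal was not tested. Nor was their part in the higher Stat3, Stat5a and Stat6 levels of Irf4 KO IgG cells. In bulk samples, fewer cells of a type and less RNA per cell cannot be told apart.

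Promoter windows were searched for the palindrome that STAT dimers bind, TTCNNNGAA. Socs2 had no window, and sites outside the windows were not searched. RefSeq windows on build GRCm38.p6, from 250 bases before the annotated start to 50 after it, were matched for 8 of the 9 genes (11 windows, since some genes have several starts). TTCNNNGAA was found in 2 of 11 windows, those of Cish and Socs3, against 8.30% of 32851 windows. The Cish window held 2 copies, and 0.457% of all windows held at least 2. The interferon-response type repeat TTTCNNTTTC, counted on both strands, was found in 2 of 11, those of Socs1 and 1 Stat4 start, against 3.44%. TTCNNNNGAA, the wider spacing that STAT6 prefers, was in 0 of 11 against 6.95%, and the AP-1 motif TGANTCA in 0 of 11 against 7.81%. The windows of the feedback genes with a match are shown 5′ to 3′ on the gene's strand, with the matches in capitals. They are TTCNNNGAA in Cish, at chr9:107296409-107296708 on the plus strand, and in Socs3, at chr11:117969317-117969616 on the minus strand. In Socs1, at chr16:10785487-10785786 on the minus strand, they are a pair of overlapping TTTCNNTTTC matches read from the other strand.
Cish: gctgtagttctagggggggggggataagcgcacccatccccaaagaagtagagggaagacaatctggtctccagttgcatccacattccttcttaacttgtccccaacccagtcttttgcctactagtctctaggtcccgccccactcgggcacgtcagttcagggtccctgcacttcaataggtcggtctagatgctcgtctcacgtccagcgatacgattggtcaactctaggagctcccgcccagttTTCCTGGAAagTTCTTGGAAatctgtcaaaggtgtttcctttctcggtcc
Socs3: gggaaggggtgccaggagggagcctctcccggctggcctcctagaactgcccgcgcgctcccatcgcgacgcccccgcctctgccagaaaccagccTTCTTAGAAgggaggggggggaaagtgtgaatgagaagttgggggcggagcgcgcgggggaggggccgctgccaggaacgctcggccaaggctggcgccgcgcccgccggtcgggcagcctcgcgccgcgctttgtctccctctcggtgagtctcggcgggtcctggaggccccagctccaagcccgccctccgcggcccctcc
Socs1: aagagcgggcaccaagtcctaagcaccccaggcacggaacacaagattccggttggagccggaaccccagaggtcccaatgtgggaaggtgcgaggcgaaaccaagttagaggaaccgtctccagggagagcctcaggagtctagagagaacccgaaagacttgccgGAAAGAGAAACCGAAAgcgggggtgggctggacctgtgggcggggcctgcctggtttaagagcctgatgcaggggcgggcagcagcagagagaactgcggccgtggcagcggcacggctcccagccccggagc
The Cish matches begin at bases 1 and 12 counted from the annotated start, that of Socs3 at base -154, and those of Socs1 at bases -83 and -77. A match describes these letters only.

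Counted over the 8 bright probes, the comparison of blockade with Irf4 KO IgG had 7 probes lower and 1 higher. All 7 lower ones had groups that did not overlap, as did 28.3% of bright probes in that direction, and 5 of them had an unadjusted p under 0.05, as did 13.0%. None of the 8 passed after adjustment by limma, beside 0.900% of bright probes called. The median log2 fold change of the members was -0.41, against 0.03 over all bright probes. On the all-probe scale 8 of 8 bright member probes were positive instead, between 0.24 and 1.41, and 6 of them were called, as were 56.7% of all probes tested on that scale. Between Irf4 KO IgG and WT 5 of 8 were positive, 4 of them without overlap (23.2% of bright probes in that direction) and 0 lower without overlap, against 29.2% of bright probes, with a median of 0.21 against -0.02 over all bright probes. Of the 8, 3 were higher with an unadjusted p under 0.05, as were 10.5% of bright probes. On the all-probe scale 8 of 8 were negative there, and 5 of them were called, beside 56.3% of all probes tested. Between blockade and WT, where the scales nearly coincide, 5 of 8 were negative, 4 of them without overlap (27.3% of bright probes), and Stat5a A_55_P1990495 was the 1 higher without overlap (27.7%). None passed by limma, beside 0.724% of bright probes called, and 3 had an unadjusted p under 0.05: Stat5a A_55_P1990495, higher (9.89% of bright probes in that direction), and Socs1 and Socs3, lower (9.11%). The comparisons share arrays, so their values are not independent of each other.

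By array position, the 2 rows of the single slide each carried 1 array of every group. No label names a row as a batch. Row 1 held array 2 of WT and of Irf4 KO IgG and array 1 of blockade, so a row mixes arrays 1 and 2. Within the rows, Socs3 differed by -0.78 and -1.44 between blockade and WT, and by -0.64 and -1.29 between blockade and Irf4 KO IgG. Stat5a A_55_P1990495 differed by 0.78 and 0.66 between Irf4 KO IgG and WT. With the row as a block the Stat5a call was lost (limma adjusted p = 0.0690).

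The other genes of the pathway were taken from lists and are given by counts on the bright-probe scale. Of the 4 JAK kinases, which phosphorylate the STAT proteins, 0 were called by limma in any comparison, and 3, 2 and 0 had an unadjusted p under 0.05 between Irf4 KO IgG and WT, blockade and Irf4 KO IgG, and blockade and WT. Over all bright probes these shares were 23.3%, 28.6% and 19.0%. All 4 were positive between Irf4 KO IgG and WT (median 0.45) and negative between blockade and Irf4 KO IgG (median -0.40), and on the all-probe scale Jak1 turned to -0.86 and 0.81. Jak1 had the lowest p among them, with -0.58 between blockade and Irf4 KO IgG (SE 0.13, limma adjusted p = 0.0773). Among 8 bright genes that brake the pathway, 0 were called by limma (1, 2 and 3 with an unadjusted p under 0.05 in the same order of comparisons), and Ptpn6, the SHP-1 phosphatase, was -0.75 between blockade and WT (limma adjusted p = 0.0865). Of 4 other SOCS genes 2 were bright and 0 called by limma, also 0 at an unadjusted p under 0.05, with Socs5 at 0.64 between Irf4 KO IgG and WT (limma adjusted p = 0.306), or -0.16 on the all-probe scale.

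Of 20 cytokine receptor genes 15 were bright and 0 were called in any comparison by limma, with 3, 4 and 5 at an unadjusted p under 0.05. The IL-4 receptor chain Il4ra had the lowest p, with 0.79 between Irf4 KO IgG and WT (SE 0.15, limma adjusted p = 0.0657), or -0.31 on the all-probe scale. Il6ra, the IL-6 receptor chain whose signal SOCS3 restrains, read 2601 and 1175 for blockade, 4337 and 7718 for Irf4 KO IgG, against 4718 and 8940 for WT. Both blockade arrays were below all others, as for Socs3. On the bright-probe scale the same held for Il2rg, Il7r, Il10ra, Il21r, Il27ra and Ifnar1. Of all bright probes, 27.3% were lower without overlap between blockade and WT, and 28.3% between blockade and Irf4 KO IgG. The log2 fold change of Il6ra was -1.57 between blockade and WT (limma adjusted p = 0.0852) and -1.39 between blockade and Irf4 KO IgG (limma adjusted p = 0.0768), neither of which passed. The second lay between -1.77 and -0.18 over the other settings. Of 14 cytokine genes 12 had a probe and only Osm was bright, with -0.29 between blockade and Irf4 KO IgG (limma adjusted p = 0.342), or 0.59 on the all-probe scale.

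STAT target genes were mostly not called. Of 12 STAT5 targets 8 were bright, and 2 rose between Irf4 KO IgG and WT: the survival gene Bcl2 (log2 fold change 1.23, SE 0.19, limma adjusted p = 0.0468) and the cytokine Lta, lymphotoxin alpha (1.05, SE 0.16, limma adjusted p = 0.0468). Both calls were lost without any 1 of the 6 arrays (Bcl2 1.05 to 1.38, Lta 0.89 to 1.24), on the all-probe scale (0.36 and 0.20) and with the slide row as a block (adjusted p 0.0699 and 0.0713). The list's median was 0.16, against -0.02 over all bright probes. Bcl2 read 522 and 306 for blockade, 702 and 1201 for Irf4 KO IgG, against 299 and 322 for WT. Of 8 bright STAT3 targets, 2 bright STAT4 targets and 2 bright STAT6 targets 0 were called by limma in any comparison. Between Irf4 KO IgG and WT 3, 1 and 1 had an unadjusted p under 0.05, beside 23.3% of bright probes. The medians there were 0.40, -0.16 and 0.59 on the bright-probe scale. They were not computed on the all-probe scale, where Il4ra, 1 of the 2 STAT6 targets, was -0.31. Tbx21, the Th1 factor, was 0.67 between blockade and Irf4 KO IgG (limma adjusted p = 0.105).

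**Figure D4:**
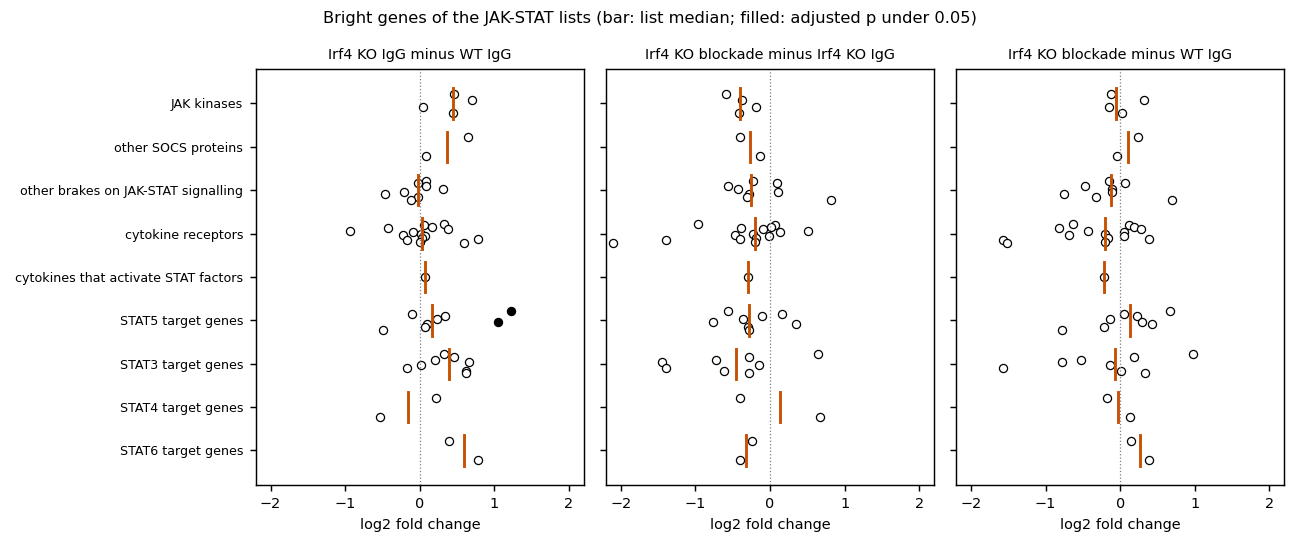
Log2 fold change of each bright gene of the JAK-STAT lists (bright-probe scale) in the 3 comparisons, with bars at the list medians and filled points where the limma adjusted p is under 0.05. The filled points are Bcl2 at 1.23 and Lta at 1.05, between Irf4 KO IgG and WT (0.36 and 0.20 on the all-probe scale).

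For the members with the lowest adjusted p, the named genes with the most similar pattern over the 6 arrays were listed by Pearson correlation on the bright-probe scale, without a test. For Stat5a A_55_P1990495 these were Eomes (r = 0.997), Fam160a1 (0.996), Gpr18 (0.995), Morf4l2 (0.993) and Spry1 (0.992). For Socs3 they were Fam78a (0.995), Ifi208 (0.990), Crlf3 (0.990), Rgs14 (0.986) and Stk4 (0.984). For Stat3 they were Pik3r1 (0.997), Itprip (0.991), Kcnn4 (0.990), Slc35e1 (0.989) and Fam114a2 (0.986). The 6 points share 1 slide, and the genes were picked as the highest of 10225 probes.

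**Figure D5:**
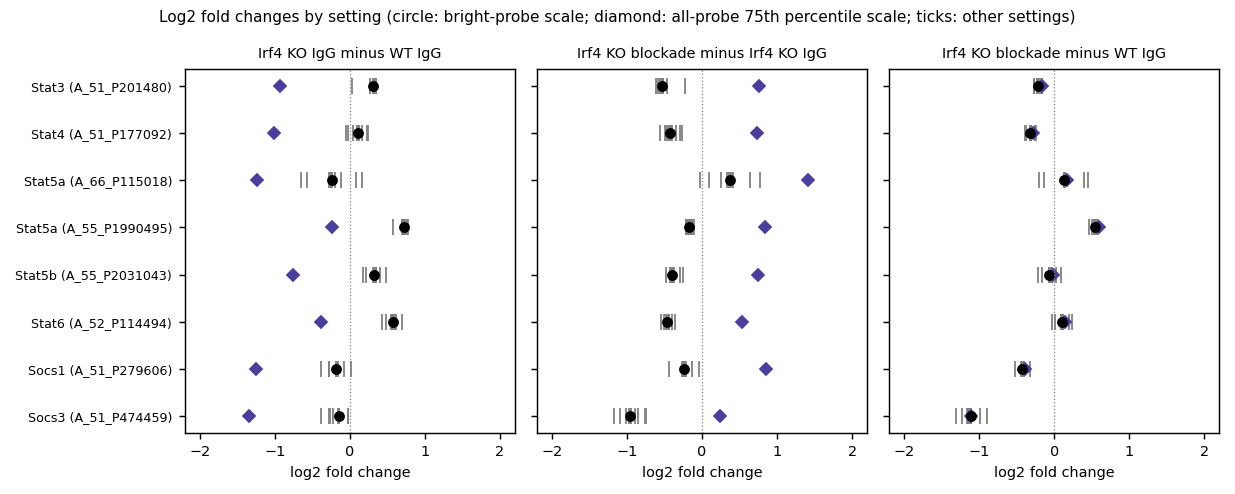
Log2 fold change of the 8 bright member probes under each setting, with circles for the bright-probe scale, diamonds for the all-probe 75th percentile scale and ticks for the other settings. The diamonds lie on the other side of 0 for Stat3 in both comparisons that involve Irf4 KO IgG, at -0.93 and 0.76, whereas between blockade and WT that of Socs3 lies at -1.10, beside the circle at -1.11.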

How the data were processed

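The 6 single-colour arrays were scanned together on 1 slide. Agilent Feature Extraction 11.0.1.1 made the scanner files, per the file headers; version 9.1 is given in the submitters' processing notes. Each deposited scanner file holds the software's processed intensity on a linear scale, not scaled between arrays. The deposited value table holds the same values as a ratio to 1 number per array (constant within 0.001). The 1234 probes without a usable spot on every array were left out, which left 55371 of 56605. Log2 intensities were averaged over spots, and probes were named through unversioned RefSeq accessions (58.3% named). The main test was limma 3.58.1 in R 4.3.3 (lmFit, eBayes, 3 groups, 3 residual degrees of freedom) on the 10225 probes with a mean log2 of at least 8, with Benjamini-Hochberg adjustment over them and a threshold of 0.05. It was tested on simulated data. Depth has no meaning for arrays, and 2 arrays per group limit the precision.

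The members and lists were chosen with earlier results of these data known. Named genes outside the members were Irf4, list genes that passed, and otherwise the gene of each list with the lowest p; some results under this rule are not reported here. Alternatives were the all-probe scale, cyclic loess, the bright median, normexp (offset 50, on median spot signal), minimums of 7 and 9, probes detected on all 6 arrays, the value table, 1 probe per gene, the 4 arrays compared, the replicate number as a block, and each array left out. The slide row as a block was added after seeing the data, and a slide block was not possible with 1 slide.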

Additional observations from a re-analysis of the deposited data

How the results depend on the processing

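With 2 arrays per group, only the spread between these 6 arrays is measured. On the all-probe 75th percentile scale, values turned between Irf4 KO IgG and WT for Stat3 (-0.93), Stat4 (-1.02), Stat5a A_55_P1990495 (-0.24), Stat5b (-0.75), Stat6 (-0.38), Jak1 (-0.86), Socs5 (-0.16), Il4ra (-0.31) and Osm (-0.79), and between blockade and Irf4 KO IgG for Stat3 (0.76), Stat4 (0.73), Stat5a A_55_P1990495 (0.84), Stat5b (0.74), Socs1 (0.86), Irf4 (1.11), Jak1 (0.81), Ptpn6 (0.93), Il4ra (0.75), Stat6 (0.53), Socs3 (0.24), Socs5 (0.46), Osm (0.59), Bcl2 (0.35) and Lta (0.12). The shift of bright probes on that scale moves with these values. Between Irf4 KO IgG and WT, 246 probes were called on the bright-probe scale, against 19695 on the all-probe scale (6 member probes), 429 with the bright median, 90 with a minimum of 9, 402 among probes well above background on all 6 arrays, 161 with 1 probe per gene, 6 with the 4 arrays compared and 94 with the slide row as a block. Between blockade and Irf4 KO IgG, 92 were called, against 19830 (6 member probes), 27 with loess, 939, 17, 309, 28, 0 with the 4 arrays and 0 with the slide row. Between blockade and WT, 74 were called, against 0 on the all-probe scale, 160 with loess, 148 with the bright median, 124 with normexp, 11 among probes well above background on all arrays, 122 with the 4 arrays and 27 with the slide row. Leaving out 1 array gave 5 to 151, 0 to 405 and 0 to 128 called probes in the same order of comparisons, with 0 member probes in each.

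The call of Stat5a A_55_P1990495, the 1 member probe called, was also lost (0 member probes called) with normexp, among probes well above background on all 6 arrays, with the 4 arrays and with the slide row; with 1 probe per gene it was not the probe kept. The cause was not tested. Replicate numbers did not pair the arrays: deviations of same-numbered arrays correlated at 0.04 (Irf4 KO IgG and WT), 0.05 (blockade and Irf4 KO IgG) and -0.18 (blockade and WT). With the replicate block 68, 60 and 58 probes and 0 member probes were called, and the adjusted p was 0.0920 for that Stat5a probe, 0.0685 for Bcl2 and 0.0857 for Lta. The Bcl2 and Lta calls were also lost with the 4 arrays (0.111 and 0.126) and among probes well above background on all 6 arrays (0.0536 and 0.0605), and that of Lta with normexp (0.0614) and a minimum of 7 (0.0508). A slide block was not run, since all arrays lay on 1 slide.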
